A study of Mus musculus with 27 samples.

Results

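Ileal epithelium of 3 mice given 1 µg/kg TCDD, a persistent chlorinated dioxin, was compared with that of 3 mice given vehicle, to find the genes that responded at this dose and how far they had moved at lower and higher doses. The 6 mice were taken by their dose labels from a series of 27 mice in 9 groups of 3 (vehicle and 8 doses of TCDD between 0.01 and 30 µg/kg). Every animal was a male of strain C57BL/6, first gavaged at postnatal day 28 and then at 4 d intervals over 28 d, with sesame oil alone in the vehicle group and TCDD in the others, and dissected at postnatal day 56 after a 6 h fast. The vehicle animals are mice 2, 3 and 4 and the treated animals are mice 41, 43 and 44, and values are given in that order throughout. The epithelium was scraped from the 10 cm of ileum next to the caecum, so each library holds RNA of all cells that came off with the scraping. Mice were housed 4 per cage, and the labels give neither the cage nor the hour of dissection, so neither can be told apart from dose here.

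TCDD acts through the aryl hydrocarbon receptor (AhR), a transcription factor held in the cytosol by HSP90 and its partner proteins. Once it binds a ligand it moves to the nucleus, pairs with ARNT and binds dioxin response elements near genes such as *Cyp1a1*, which oxidizes many aromatic compounds, and *Ahrr*, which encodes the repressor of AhR. The circadian clock is built from relatives of these proteins: ARNTL (BMAL1) with CLOCK or NPAS2 activates the *Per*, *Cry*, *Nr1d1*, *Nr1d2*, *Dbp* and *Tef* genes through E-boxes, the PER and CRY proteins inhibit this activation, and the REV-ERB proteins encoded by *Nr1d1* and *Nr1d2* repress *Arntl* and *Nfil3*. DBP, TEF and HLF activate, and NFIL3 represses, genes that carry D-boxes, and in the gut many of these transcripts rise and fall over each day.

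Reads counted on genes came to 14.0, 13.14 and 14.44 M in the vehicle mice and 17.14, 13.72 and 15.69 M in the treated mice. The exact permutation p, two-sided, between the groups was 0.3 for depth, 0.8 for the share of the 10 most abundant genes, 0.3 for the mitochondrial share and 0.2 for the share of reads on no feature, and groups of 3 mice cannot give a p below 0.1. The index sequences of the libraries recur in the series: all vehicle mice, all mice up to 0.3 µg/kg and mouse 41 carry the first use of an index (16 mice), and mice 43 and 44 and all higher doses carry the second (11 mice). Markers of enterocytes (11 of 11 listed genes tested, summed level 22506 to 23586 CPM in vehicle mice and 23417 to 28096 CPM in treated mice) and of the distal ileum (8 of 8, 3931 to 5277 and 5076 to 5268 CPM) were expressed in all 6 mice, where CPM is the count scaled to library size after TMM normalization.

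At 1 µg/kg, 99 of 16741 genes tested changed (67 were induced and 32 repressed), which is 0.591% of all genes tested (0.4% induced, 0.191% repressed). A gene was called at an adjusted p of at most 0.05 after Benjamini-Hochberg adjustment in the quasi-likelihood test of edgeR and a fold change of at least 1.5. The induced genes had a median log2 fold change of 0.90 (0.59 to 5.78) and the repressed genes of -1.13 (-4.70 to -0.64), beside 0.00 over all genes. A change of at least 2-fold was found for 30 induced and 21 repressed genes, and of at least 4-fold for 8 and 4. In all 99 genes the treated mice lay wholly above or wholly below the vehicle mice, which was also so of 10.3% (above) and 10.2% (below) of all genes tested. The count rested on single mice: 12 genes were called without vehicle mouse 4, 30 without vehicle mouse 2, 51 without mouse 44 and 52 without mouse 41, and 66 without mouse 43. With a score of clock genes as a covariate 0 genes were called by edgeR, with 960 at an unadjusted p under 0.05. The score does not overlap between the groups, so in this fit it takes up much of the difference between them. Protein coding genes made up 89 of the 99. The p-values measure the spread between mice of the same group, estimated over all 27 mice in 9 groups. Without the cage in the labels, an effect of cage may lie in the difference between groups, which these p-values would not take into account. In scraped tissue, fewer cells of a type and less RNA per cell cannot be told apart.

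**Figure D1:**
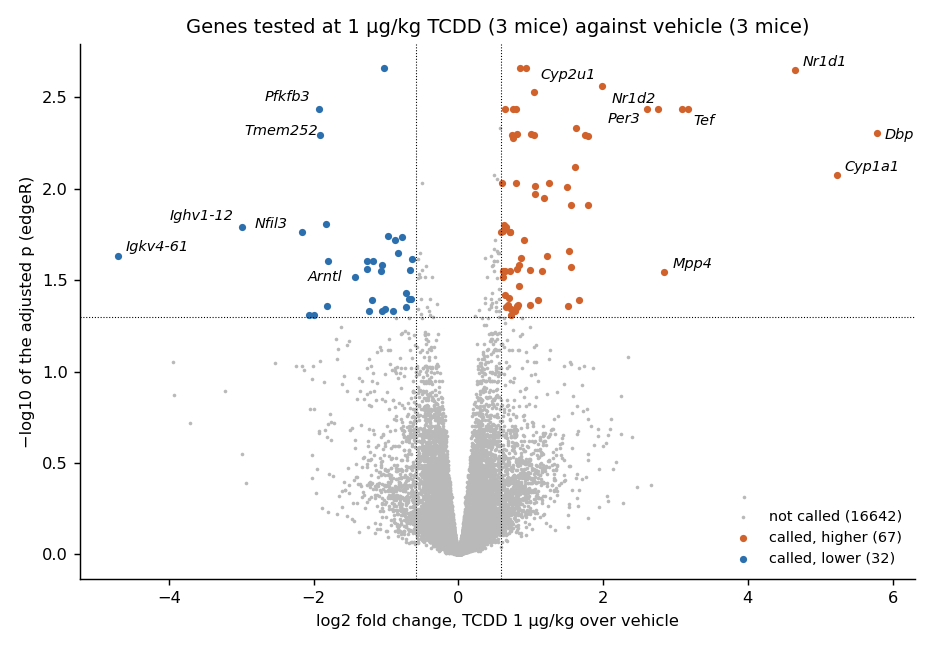
Each point is 1 of 16741 genes tested: its log2 fold change at 1 µg/kg TCDD (3 mice) over vehicle (3 mice) on the x axis, and −log10 of its adjusted p in edgeR on the y axis. Dotted lines mark the limits of 1.5-fold and 0.05. The 67 induced genes (orange) reach 5.78 (*Dbp*) and the 32 repressed genes (blue) reach -4.70 (*Igkv4-61*).

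*Cyp1a1* (chromosome 9, 57687928 to 57703824, plus strand, GRCm38) was induced from near 0. It measured 0.211, 0 and 0.138 CPM in the vehicle mice and 3.32, 4.68 and 6.30 CPM in the treated mice, so that the lowest treated mouse stood far above the highest vehicle mouse. These levels rest on 3, 0 and 2 reads in the vehicle mice and 59, 61 and 103 reads in the treated mice. The fitted log2 fold change was 5.23 (SE 0.96, 37.5-fold, adjusted p = 0.0084). The ratio of summed counts scaled for depth was 40.0, with a 95% exact interval of 16.9 to 124 that covers counting error only. *Ahrr* (chromosome 13, 74211118 to 74292331, minus strand) was induced far less, from 2.53, 2.27 and 2.63 CPM to 4.28, 4.22 and 3.79 CPM. Its log2 fold change was 0.72 (SE 0.17, 1.65-fold, adjusted p = 0.0452), and its groups did not overlap, but it was not called in any of the 6 fits that left out 1 compared mouse.

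The dioxin response element has the core GCGTG. It was sought on both strands of the RefSeq promoter table (GRCm38.p6; 250 bases before to 50 after each start site), in which 45 of the 65 induced genes with a symbol and 20 of the 32 repressed genes were found. The core was present in 47.5% of the 61 windows of induced genes, 43.5% of the 23 windows of repressed genes and 32.4% of all 32851 windows. In 19 windows of a list of AhR target genes the share was 42.1%, below that of both called sets. The stretches around the core (in capitals) upstream of the called AhR genes and of the clock repressor *Nr1d2* are shown as examples of windows with the core among the called AhR and clock genes. They lie at chr9:57697529-57697593 (plus strand), chr13:74292404-74292468 (minus strand) and chr14:18239192-18239256 (minus strand). A match describes the letters in the window and is not evidence of binding.
Cyp1a1: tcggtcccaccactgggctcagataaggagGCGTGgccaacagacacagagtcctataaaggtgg
Ahrr: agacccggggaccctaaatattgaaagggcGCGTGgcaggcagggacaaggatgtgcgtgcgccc
Nr1d2: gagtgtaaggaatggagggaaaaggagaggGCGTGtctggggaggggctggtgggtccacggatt

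*Cyp1a1* and *Ahrr* were the called members among 15 tested of 20 listed AhR target genes (beside 0.4% of all genes tested called as induced), with 0 repressed and a list median log2 fold change of 0.01. *Cyp1b1*, a second AhR-responsive oxidase, measured 2.39, 1.25 and 1.11 CPM in vehicle mice and 3.26, 2.15 and 2.57 CPM in treated mice, and the groups overlapped (log2 0.76, adjusted p = 0.366). *Tiparp*, an ADP-ribosyltransferase that feeds back on AhR, measured 41.9, 35.0 and 40.8 CPM against 26.2, 28.9 and 33.3 CPM. Its treated mice lay below its vehicle mice, but the difference did not pass the test (log2 -0.41, adjusted p = 0.224). *Nqo1*, which reduces quinones, had a log2 fold change of -0.29 (adjusted p = 0.533). The conjugating enzymes *Ugt1a6a* and *Ugt1a7c*, which share exons with one another and can exchange reads, had 0.35 (adjusted p = 0.381) and 0.15 (0.622). *Nfe2l2*, which encodes NRF2, had 0.38 (adjusted p = 0.138), and *Slc7a5*, an amino acid transporter, -0.87 (adjusted p = 0.0955). *Slc7a5* measured 16.1, 12.8 and 29.3 CPM in the vehicle mice, and its log2 fold change ran from -1.11 to -0.44 with 1 mouse left out. Of the other listed targets, *Cyp1a2* had 0 reads, *Aldh3a1* 7 and *Il22* 1 read over the 6 mice and were not tested. Among 13 genes of the receptor complex 0 were called, with a list median of -0.03 and a lowest log2 fold change of -0.33 (*Hsp90aa1*), and the receptor *Ahr* and its partner *Arnt* both had 0.09 (adjusted p = 0.799 and 0.659). None of 19 tested NRF2 target genes was called either (median -0.10). Over all genes tested 0.591% were called, a share at which lists of this length would mostly hold 0 called genes.

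Of the 8 genes induced at least 4-fold, 5 were clock genes. *Dbp* (chromosome 7, 45705088 to 45710203, plus strand), the D-box activator, measured 0.634, 0.587 and 0.346 CPM in the vehicle mice and 50.6, 18.3 and 18.2 CPM in the treated mice. The groups stood far apart, and mouse 41 was the highest. The log2 fold change was 5.78 (SE 0.98, 55.1-fold, adjusted p = 0.00496), and the depth-scaled ratio of 1435 to 22 reads was 58.5 (95% exact interval 38.5 to 93.7, counting error only). *Nr1d1* (chromosome 11, 98767932 to 98775333, minus strand), which encodes the repressor REV-ERBα, measured 5.28, 11.4 and 2.77 CPM in the vehicle mice and 224, 128 and 134 CPM in the treated mice. It was induced 25.2-fold (log2 4.65, SE 0.68, adjusted p = 0.00224). Its paralog *Nr1d2* rose from 14.7, 18.0 and 12.3 CPM to 125, 81.01 and 98.9 CPM (log2 2.76, SE 0.45, adjusted p = 0.00364). In each of these genes mouse 41 was again the highest of the treated mice.

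*Tef*, the second D-box activator, rose from 12.2, 11.6 and 7.61 CPM to 116, 72.7 and 78.7 CPM (log2 3.09, SE 0.49, adjusted p = 0.00364). *Per3* (chromosome 4, 151003652 to 151044665, minus strand), a period gene of the negative arm, rose from 5.98, 5.35 and 6.64 CPM to 49.7, 28.8 and 31.0 CPM (log2 2.61, SE 0.42, adjusted p = 0.00364). *Per2*, its paralog that inhibits CLOCK:ARNTL, rose from 21.3, 21.8 and 19.7 CPM to 48.6, 49.9 and 41.8 CPM (log2 1.16, SE 0.26, adjusted p = 0.0282). The vehicle mice of *Per2* lay within a narrow band, and no treated mouse came near it, but *Per2* too was called in none of the 6 fits without 1 of these mice.

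These made 6 called members of the 12 listed clock repressors and outputs (beside 0.4% of all genes tested called as induced), with 0 repressed and a list median of 1.73. The treated mice lay above the vehicle mice in 9 of the 12, beside 10.3% of all genes tested. The other 3 of these 9 did not pass the test: *Cry2* had a log2 fold change of 0.77 (adjusted p = 0.206), *Hlf* of 1.63 (0.155) and *Ciart*, which encodes an inhibitor of CLOCK:ARNTL, of 1.83 (0.198). *Hlf* and *Ciart* were counted at only 28 and 16 reads over the vehicle mice. *Per1* measured 27.2, 27.1 and 30.2 CPM in the vehicle mice and 19.1, 33.7 and 37.0 CPM in the treated mice, so its treated mice lay on both sides of its vehicle mice (log2 0.08, adjusted p = 0.933). *Bhlhe40* and *Bhlhe41*, E-box repressors, had 0.05 and 0.64 with overlapping groups.

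*Arntl*, *Nfil3* and *Cry1* went the other way. *Arntl* (chromosome 7, 113207465 to 113314126, plus strand), the central activator, measured 56.7, 65.3 and 59.1 CPM in the vehicle mice and 13.8, 34.1 and 19.8 CPM in the treated mice. It was repressed with a log2 fold change of -1.43 (SE 0.32, adjusted p = 0.0304), and mouse 43 lay closest to the vehicle mice. *Nfil3* (chromosome 13, 52967209 to 52981073, minus strand), the D-box repressor, fell from 30.5, 26.5 and 23.7 CPM to 5.34, 7.91 and 4.83 CPM (log2 -2.17, SE 0.44, adjusted p = 0.0172). *Cry1*, a repressor that peaks late in the cycle, fell from 43.0, 43.4 and 51.4 CPM to 13.7, 30.3 and 16.6 CPM (log2 -1.19, SE 0.28, adjusted p = 0.0406). These were 3 called members of 7 listed activators and genes in their phase (beside 0.191% of all genes tested called as repressed), with 0 induced and a list median of -1.07. With 1 compared mouse left out, *Arntl* and *Cry1* were each called in 1 and *Nfil3* in 2 of the 6 fits. *Npas2*, which can stand in for CLOCK, measured 86.9, 87.9 and 70.3 CPM against 33.8, 48.8 and 34.1 CPM, with no overlap and an adjusted p of 0.0761 (log2 -1.07). *Clock* itself had 0.07 (adjusted p = 0.837).

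**Figure D2:**
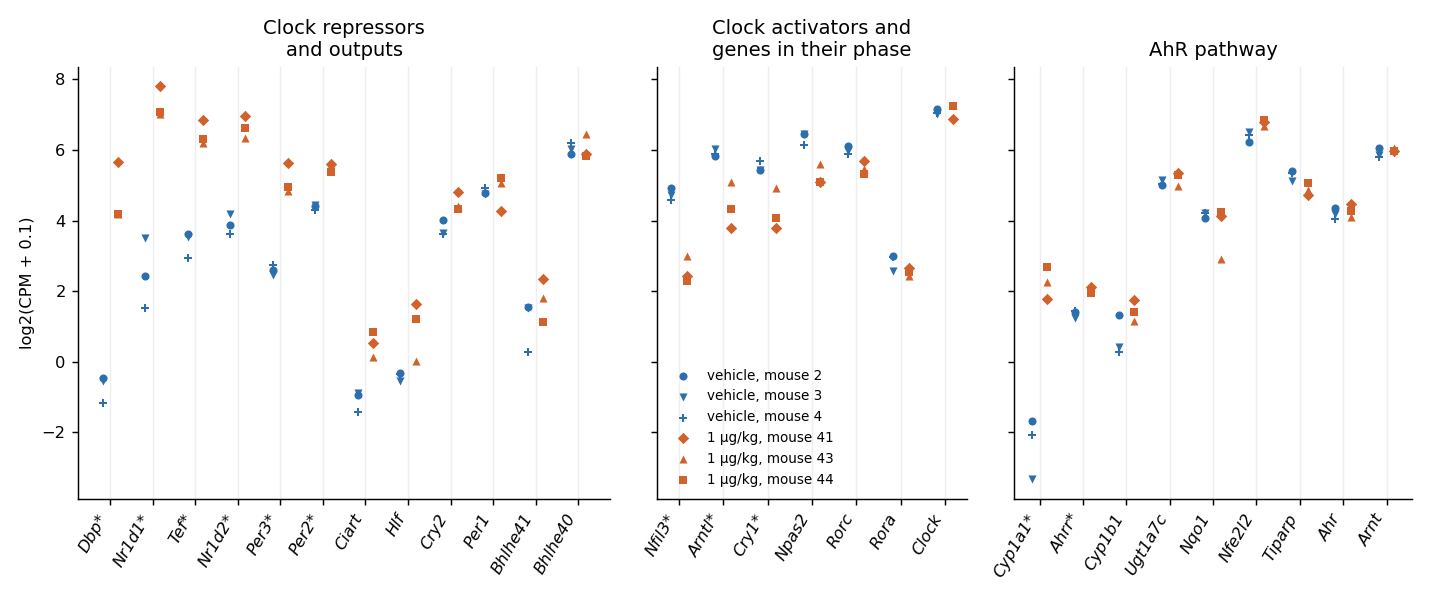
Level of clock and AhR pathway genes in each of 6 mice, as log2(CPM + 0.1): vehicle mice 2, 3 and 4 in blue and 1 µg/kg TCDD mice 41, 43 and 44 in orange, with an asterisk after the name of each called gene. *Dbp*, *Nr1d1*, *Tef*, *Nr1d2*, *Per3* and *Per2* are higher, *Nfil3*, *Arntl* and *Cry1* are lower, and *Cyp1a1* and *Ahrr* are the called genes of the AhR panel.

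The promoter windows of the clock lists (21 windows of 16 of the 19 genes) held the E-box CACGTG, which reads the same on both strands, in 28.6%, beside 7.2% of all windows. The D-box TTATGTAA was present in 4.8% of them (a window of *Per3*) and in 0.9% of all windows, and its variant TTATGCAA in 4.8% and 0.7%. GCGTG was present in 71.4% of the clock windows and 32.4% of all. The 5 motifs, which do not contain one another, were sought on both strands. Printed here are both D-boxes of *Per3* at chr4:151044833-151044900 and chr4:151044786-151044853, whose stretches overlap, and E-boxes of *Cry1* at chr10:85185079-85185144 and of *Ciart* at chr3:95882309-95882374, all on the minus strand, because *Per3* was the D-box gene among those induced and *Cry1* an E-box gene that was repressed.
Per3 first D-box: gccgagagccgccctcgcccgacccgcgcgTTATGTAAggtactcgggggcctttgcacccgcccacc
Per3 second D-box: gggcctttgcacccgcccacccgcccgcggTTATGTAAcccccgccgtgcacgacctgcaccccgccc
Cry1 E-box: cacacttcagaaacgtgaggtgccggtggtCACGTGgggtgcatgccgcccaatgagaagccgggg
Ciart E-box: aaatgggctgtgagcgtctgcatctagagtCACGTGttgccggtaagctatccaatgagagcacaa

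The half-site TAGGTCA, part of the element bound by REV-ERB and ROR proteins, was in 17.4% of the windows of repressed genes (4 genes), in 0% of those of induced genes and in 2.6% of all windows. Stretches of a pair of genes outside the clock lists are printed, from *Dhrs9* at chr2:69380344-69380410, where it lies on the opposite strand and reads TGACCTA, and from *Leo1* at chr9:75441431-75441497, both on the plus strand of the gene. *Dhrs9*, a retinol dehydrogenase, fell from 4.22, 3.37 and 3.67 CPM to 0.788, 1.69 and 0.795 CPM (log2 -1.81, adjusted p = 0.0438). *Leo1*, a subunit of the PAF complex of transcription elongation, fell from 26.3, 26.6 and 24.9 CPM to 10.2, 14.4 and 13.7 CPM (log2 -1.02, SE 0.15, adjusted p = 0.00219). The windows are few, and no test was made of these shares.
Dhrs9: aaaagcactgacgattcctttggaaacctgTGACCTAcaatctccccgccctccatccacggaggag
Leo1: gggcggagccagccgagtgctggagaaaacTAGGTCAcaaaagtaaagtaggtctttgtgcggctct

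*Abcc2* (chromosome 19, 43782192 to 43840740, plus strand), the apical export pump for conjugates known as MRP2, rose from 91.4, 145 and 98.2 CPM to 426, 329 and 399 CPM (log2 1.79, SE 0.35, adjusted p = 0.0123). *Cyp2u1* (chromosome 3, 131288441 to 131303227, minus strand), a fatty acid hydroxylase, rose from 24.5, 28.5 and 21.2 CPM to 117, 81.9 and 93.2 CPM (log2 1.98, SE 0.30, adjusted p = 0.00273). These were the called members of a list of 34 genes of phase II conjugation and drug transport. The list also holds other *Cyp2* and *Cyp3a* oxidases, and neither *Abcc2* nor *Cyp2u1* encodes a conjugating enzyme. It had 0 repressed genes and a median of 0.09, beside 0.4% of all genes tested called as induced. *Abca8b*, an ABC transporter, rose from 2.18, 2.57 and 1.80 CPM to 6.86, 8.45 and 7.46 CPM (log2 1.79, SE 0.31, adjusted p = 0.00511). *Slc6a4*, the serotonin transporter, rose from 29.4, 37.6 and 31.1 CPM to 58.3, 55.7 and 47.5 CPM (log2 0.72, adjusted p = 0.0172). It was 1 called of 9 tested genes of tryptophan and serotonin metabolism (list median 0.32), beside the same 0.4% of all genes. In all of these genes the groups were apart.

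*Trib3*, a pseudokinase induced by stress, rose from 3.38, 2.79 and 3.39 CPM to 10.4, 9.83 and 7.22 CPM (log2 1.52, adjusted p = 0.0438). It was the called member of 18 genes of the unfolded protein response (beside 0.4% of all genes tested called as induced), with a list median of -0.14. *Stard4*, which carries cholesterol between membranes, had a log2 fold change of 0.63 (adjusted p = 0.0158). It was the called member of 28 genes of sterol and fatty acid synthesis (list median -0.06), beside the same 0.4% of all genes. Further genes with a large induction were *4930534D22Rik* (log2 3.17, adjusted p = 0.00364), *Mpp4* (2.84, 0.0284), *Pigz*, a mannosyltransferase of GPI anchors (1.67, 0.0407), *Lrrc75b* (1.61, 0.00761) and *Gm42684* (1.55, 0.0267). *4930534D22Rik* and *Mpp4* were counted at 7 and 11 reads over the vehicle mice.

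Of the induced genes that the naming rule leaves out, some were chosen after their values were seen because the spread within groups was small or the level at lower doses was close to that of vehicle. *Nr3c2*, the mineralocorticoid receptor, rose from 118, 110 and 127 CPM to 194, 198 and 164 CPM (log2 0.65, SE 0.10, adjusted p = 0.00364). *Cipc*, which encodes a CLOCK-interacting inhibitor, rose from 31.7, 33.0 and 34.5 CPM to 59.0, 56.9 and 60.5 CPM (log2 0.83, adjusted p = 0.0339). *Scin*, an actin-severing protein, rose from 235, 301 and 205 CPM to 508, 551 and 481 CPM (log2 1.06, adjusted p = 0.0106). The groups were apart in each of these. *Tns4* (log2 1.501) and *Ank3* (1.25), a focal adhesion protein and a membrane scaffold, and *Epha1* (1.00), an ephrin receptor, were further called genes, as was *Thra* (0.79), the thyroid hormone receptor α.

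Among repressed genes, *Pfkfb3* (chromosome 2, 11471433 to 11554077, minus strand), which makes the activator of phosphofructokinase and so sets the pace of glycolysis, fell from 242, 220 and 236 CPM to 45.01, 84.9 and 54.3 CPM (log2 -1.93, SE 0.32, adjusted p = 0.00364). *Tmem252* (chromosome 19, 24674008 to 24682233, plus strand), a membrane protein, fell from 21.9, 20.8 and 22.2 CPM to 3.04, 8.14 and 6.30 CPM (log2 -1.91, SE 0.33, adjusted p = 0.00509). In both genes the vehicle mice were tightly grouped and mouse 41 was the lowest of the treated mice. *B3gnt7*, which extends keratan sulfate and lactosamine chains, fell from 163, 111 and 201 CPM to 28.6, 56.3 and 49.2 CPM (log2 -1.83, adjusted p = 0.0155). *Fut2*, which adds the fucose of mucosal blood group antigens, fell from 40.3, 18.6 and 62.4 CPM to 11.5, 7.06 and 16.0 CPM (log2 -1.80, adjusted p = 0.0247). *Cd38*, an NAD glycohydrolase, fell from 649, 501 and 728 CPM to 255, 263 and 261 CPM (log2 -1.27, adjusted p = 0.0275). For *B3gnt7* and *Fut2* mouse 3 was the lowest of the vehicle mice. *Adamts4*, a protease of matrix proteoglycans, fell from 1.83, 1.54 and 0.969 CPM to 0.281, 0.307 and 0.428 CPM (log2 -2.06, adjusted p = 0.0492). *Myot*, a sarcomere protein, fell from 6.05, 7.48 and 10.1 CPM to 1.18, 1.92 and 2.81 CPM, with the same adjusted p. The summed level of 8 smooth muscle markers, 0 of them called, was 31.0 to 126 CPM in vehicle mice and 28.2 to 167 CPM in treated mice.

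The lowest fold changes belonged to a pair of immunoglobulin variable segments. *Igkv4-61* was counted at 59, 3 and 18 reads in the vehicle mice and at 1 read in each treated mouse (log2 -4.70, SE 0.99, adjusted p = 0.0234; ratio of scaled counts 0.0336, 95% exact interval 0.00679 to 0.102). *Ighv1-12* measured 9.71, 4.11 and 26.3 CPM against 1.86, 0.998 and 2.08 CPM (log2 -2.997, adjusted p = 0.0162). The vehicle mice differed widely from one another in both segments. Of 10 listed markers of B lymphocytes and plasma cells 9 were tested, 0 were called, their median log2 fold change was 0.46, and their summed level was 1404 to 1965 CPM in vehicle mice and 669 to 1527 CPM in treated mice. The part of these cells in the result was not tested.

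The lists of other pathways and of cell types held few called genes, and only 0.591% of all genes tested were called. A list without a called gene is therefore not shown to be unchanged. Over 23 pathway and 18 marker lists, 7 held any called gene, and both clock lists and the tuft cell list were those with a median past a log2 of 0.585 in either direction. In the tuft cell list 0 of 7 tested markers were called, with a median of 0.61 and a summed level of 39.1 to 53.9 CPM in vehicle mice and 65.3 to 96.0 CPM in treated mice, the highest value being that of *Pou2f3*, the tuft cell regulator (log2 1.28). Genes of the cell cycle and DNA replication had a median of -0.37 over 20 genes, from -0.84 (*Ccnd1*) to 0.07 (*Ccne1*), with 0 called. Of these, 7 had an unadjusted p under 0.05 in edgeR (beside 14.1% of all genes). In 6 the treated mice lay wholly below the vehicle mice (beside 10.2% of all genes). The lists of bile acid handling (8 tested, median 0.24), fat and cholesterol absorption (24, 0.00), fatty acid oxidation (20, -0.06), sugar digestion and transport (13, 0.21), amino acid and peptide transport (17, 0.12), iron and haem handling (12, 0.01), tight and adherens junctions (17, -0.02) and interferon-stimulated genes (18, -0.35) held 0 called genes. Glucocorticoid-responsive genes (13, -0.41), immediate early genes (16, -0.28), heat shock chaperones (12, -0.10), antimicrobial and epithelial defence genes (14, -0.48) and 10 genes of the mitochondrial genome (0.22) also held 0.

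Cell type markers were called in none of the 18 lists, beside 0.591% of all genes tested called in either direction. At that share most lists of this size would hold no called gene, so their absence does not show that cell types were unchanged. The medians were 0.01 for enterocytes, 0.10 for the distal ileum, -0.11 for the proximal small intestine, 0.07 for the large intestine, -0.21 for Paneth cells, 0.14 for goblet cells, 0.08 for enteroendocrine cells, -0.23 for stem cells and 0.29 for T lymphocytes. They were -0.06 for macrophages and dendritic cells, 0.35 for smooth muscle, -0.34 for fibroblasts, -0.05 for endothelium and -0.21 for the 2 tested genes of enteric neurons and glia. Of the pancreatic acinar and red blood cell lists 1 gene each passed the filter on low counts (log2 -0.24 for *Cela1* and 0.11 for *Alas2*).

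**Figure D3:**
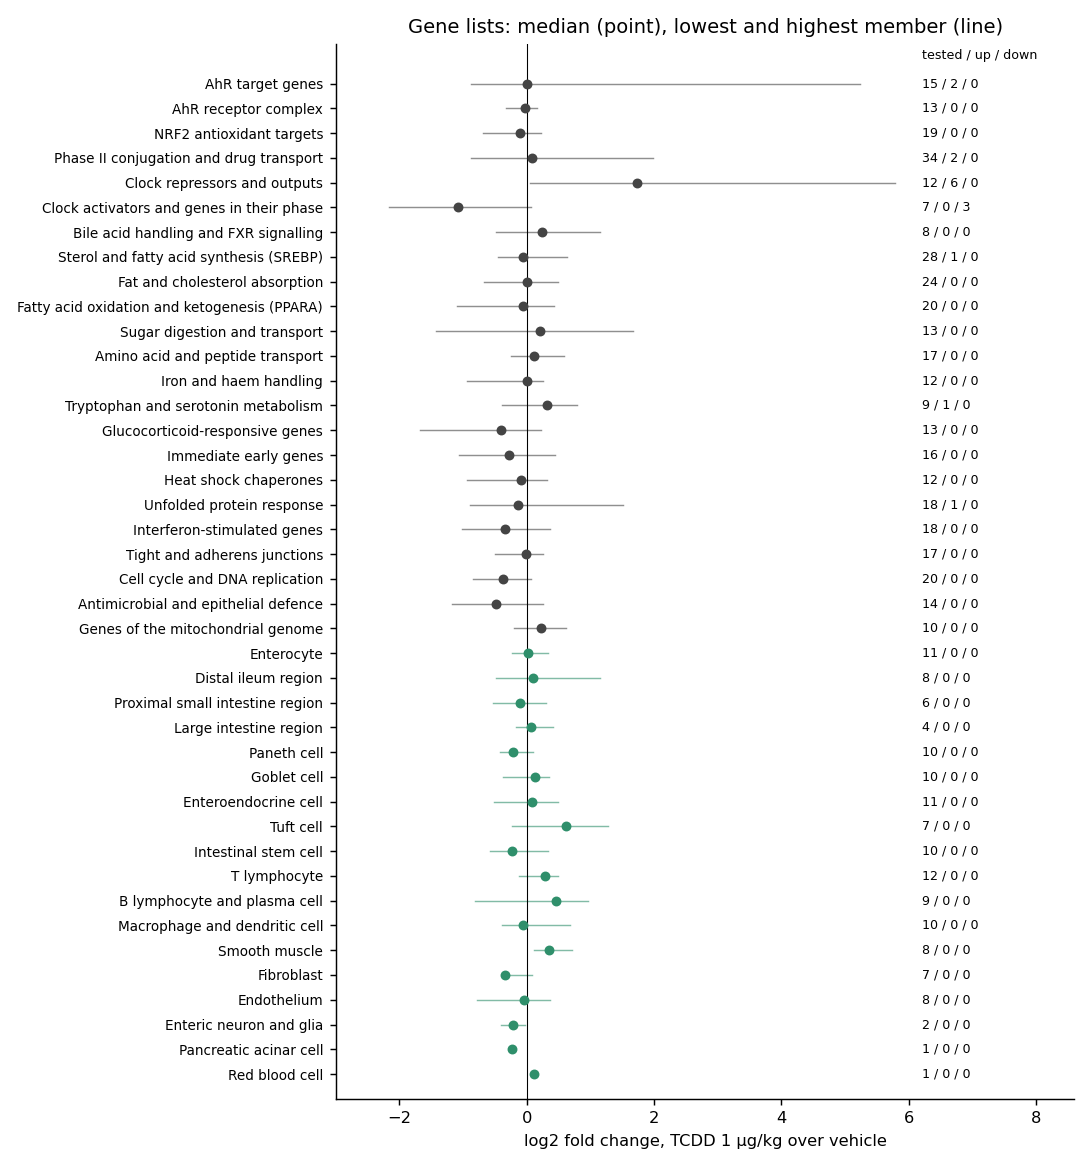
Median log2 fold change at 1 µg/kg over vehicle of each of 41 gene lists (point) with its lowest and highest tested member (line), pathway lists in grey and cell type markers in green, and the numbers tested, induced and repressed at the right. The clock repressors and outputs (median 1.73, 6 of 12 induced) stand apart from a background median of 0.00. So do the clock activators and genes in their phase (-1.07), where the 3 of 7 repressed are *Arntl*, *Nfil3* and *Cry1*. Among all genes tested, 0.4% were induced and 0.191% repressed.

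The levels of these genes were then read at the 4 lower doses. Against vehicle, edgeR called 0 genes at each of the doses below 1 µg/kg. In order of rising dose, 699, 591, 1037 and 1247 genes had an unadjusted p under 0.05 there (4.18%, 3.53%, 6.19% and 7.45%) and DESeq2 called 3, 0, 5 and 18. The lowest adjusted p at 0.3 µg/kg was 0.0606, for *Arhgef19*, a gene also called at 1 µg/kg. These contrasts share the vehicle mice with that of 1 µg/kg. The share of the log2 step from vehicle to 1 µg/kg was taken from the 12 mice at 0.01 to 0.3 µg/kg. It was computed with 0.1 CPM added and is given as a description. The 99 genes were chosen with these vehicle mice, so the shares cannot show at which dose a gene began to move. The median share was 38.2% for the 67 induced and 44.6% for the 32 repressed genes, and 69 of the 99 had made under 50% of their step. *Per2* had made 1.63%, *Nr3c2* 2.89%, *Cipc* 3.41%, *Nfil3* 9.58%, *Scin* 14.6%, *Cyp1a1* 15.6% and *Arntl* 15.8%, and at 0.3 µg/kg alone the shares were 12.6%, 5.35%, 19.8%, 27.5%, 23.2%, 25.0% and 29.4% in the same order. *Nr1d1* had made 57.9%, *Pfkfb3* 61.5%, *Cd38* 61.5%, *Fut2* 65.7% and *Ahrr* 67.1%, and at 0.3 µg/kg alone 71.6%, 65.1%, 85.2%, 88.1% and 69.8%. Mouse 14, given 0.01 µg/kg, was the most extreme of the 12 mice, in the direction of the change, in *Per2*, *Nr3c2*, *Cipc*, *Nfil3*, *Scin*, *Arntl*, *Nr1d1* and *Cd38*. It was not so in *Cyp1a1*, *Pfkfb3*, *Fut2* and *Ahrr*.

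Mean levels at the doses are given beside these shares. *Cyp1a1* averaged 0.117 CPM in vehicle mice, 0.218, 0.0976, 0.320 and 0.372 CPM at the 4 lower doses and 4.77 CPM at 1 µg/kg, and *Per2* 20.9 CPM in vehicle mice, 24.4, 17.1, 20.1 and 23.2 CPM at the lower doses and 46.8 CPM at 1 µg/kg. For both genes the step from 0.3 to 1 µg/kg exceeded the whole range of the means below it. At 0.01 µg/kg, *Per2* measured 38.3 CPM in mouse 14, beside 17.0 and 17.9 CPM in the other mice of that dose. *Pfkfb3* averaged 233 CPM in vehicle mice and 110, 101, 102 and 97.7 CPM at the 4 lower doses before 61.4 CPM at 1 µg/kg. *Cd38* averaged 626 CPM in vehicle mice, then 404, 421, 337, 296 and 260 CPM up to 1 µg/kg. For this pair the largest step between neighbouring means lay between vehicle and 0.01 µg/kg. That dose had 0 called genes against vehicle, and the same vehicle mice chose this pair, so the step does not place the start of a response.

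The 1 µg/kg mice were also tested against the 12 mice at 0.01 to 0.3 µg/kg, which leaves out the vehicle mice but shares the treated mice. This called 38 genes (0.227% of those tested; 32 or 0.191% higher and 6 or 0.0358% lower), and 31 of the 99 were among them (28 induced, 3 repressed). *Cyp1a1*, *Dbp*, *Nr1d1*, *Tef*, *Nr1d2*, *Per3*, *Per2*, *Cipc*, *Cyp2u1*, *Trib3* and *Nr3c2* were called on the higher side, and *Nfil3*, *Tmem252* and *Leo1* on the lower. *Ahrr*, *Abcc2*, *Arntl*, *Pfkfb3*, *Cd38* and *Fut2* were not called in it. The count was 7 with index use as a covariate, 25 without mouse 43 and 72 without mouse 14. In 33 of the 99 genes all 3 treated mice lay beyond all 12 lower-dose mice (28 induced, 5 repressed), which was also so of 0.89% (above) and 0.711% (below) of all genes tested. The 99 genes were chosen with these treated mice.

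**Figure D4:**
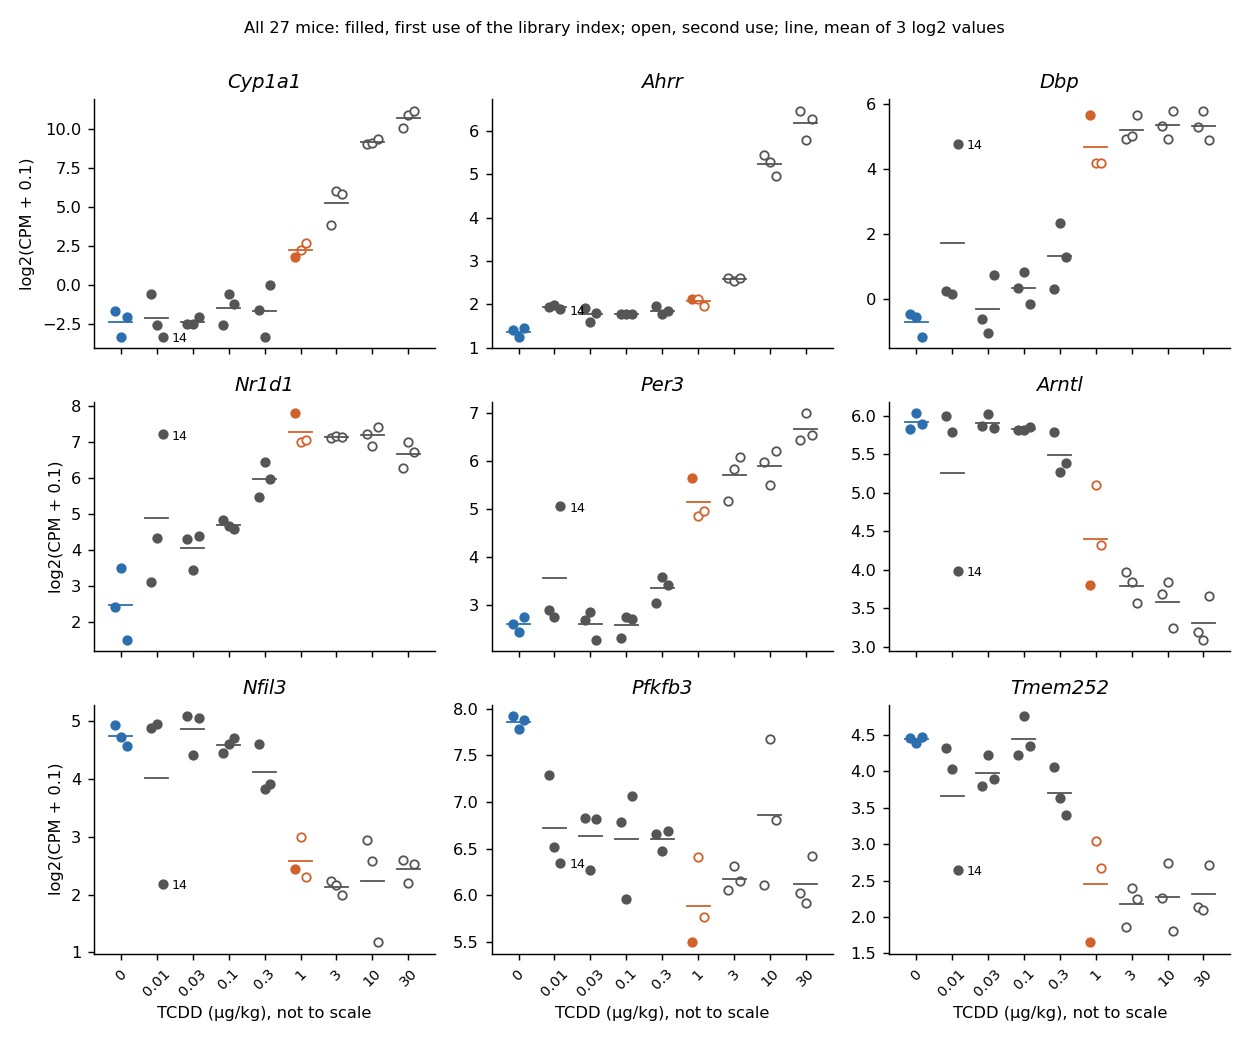
Level of 9 genes in each of 27 mice as log2(CPM + 0.1), by TCDD dose (vehicle blue, 1 µg/kg orange, other doses grey); filled points are libraries with the first use of an index, open points the second, and the line is the mean of 3 log2 values. Mouse 14, given 0.01 µg/kg, is numbered. *Cyp1a1* averages 4.77 CPM at a dose of 1 µg/kg and 1741 at 30 µg/kg, while *Dbp* averages 29.0 and 41.4 CPM there.

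Mouse 14, given 0.01 µg/kg, stood apart from the other lower-dose mice in the clock genes. It measured 27.6 CPM of *Dbp*, 149 CPM of *Nr1d1*, 80.2 CPM of *Tef*, 33.1 CPM of *Per3* and 15.7 CPM of *Arntl*, which lie at or near the levels of the 1 µg/kg mice, while its *Cyp1a1* was 0 CPM. A clock score, the mean log2 CPM of 12 repressor and output genes minus that of 5 activator-phase genes, was -3.31, -3.23 and -3.56 in the vehicle mice, 0.44, -0.83 and -0.18 in the treated mice and 0.21 in mouse 14, beside -3.24 and -3.11 in the other mice at 0.01 µg/kg. At 0.3 µg/kg the score was -2.66, -1.76 and -1.99, and from 3 to 30 µg/kg it lay between 0.11 and 1.44. Mouse 14 was the highest of the 12 lower-dose mice in 29 of the 67 induced genes (9.45% of all genes tested) and the lowest in 12 of the 32 repressed genes (9.43%). Without it, the treated mice lay beyond all other 11 lower-dose mice in 50 of the 99 genes (41 induced, 9 repressed; 1.25% above and 1.11% below among all genes tested), and 72 in place of 38 genes were called between 1 µg/kg and the lower doses.

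**Figure D5:**
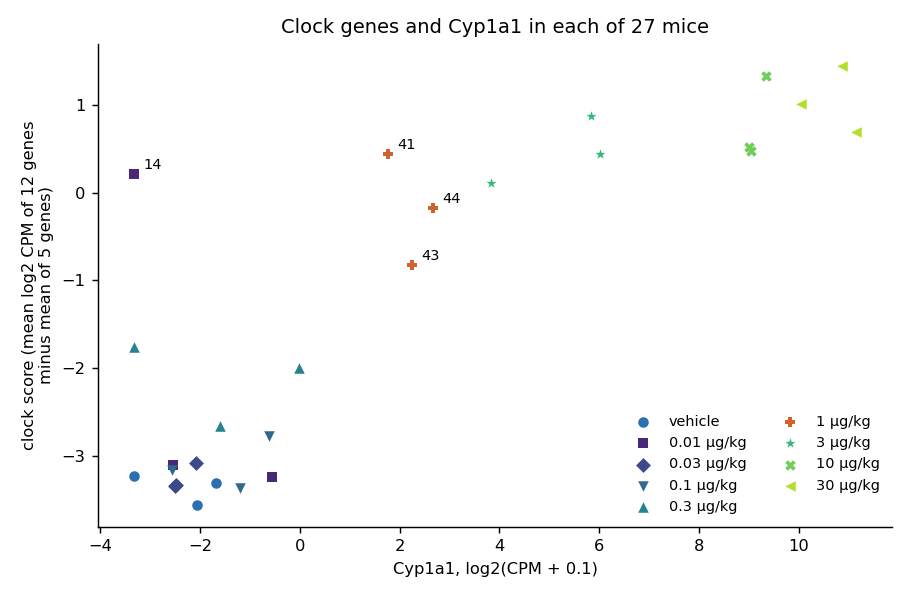
Clock score (mean log2 CPM of 12 genes minus mean of 5 genes) against *Cyp1a1* as log2(CPM + 0.1) in each of 27 mice, marked by dose, with mice 14, 41, 43 and 44 numbered. The treated mice lie at scores of -0.83 to 0.44 with raised *Cyp1a1*, and mouse 14 lies at 0.21 with 0 CPM of *Cyp1a1*.

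The called genes were examined in mice outside the comparison, at 3 µg/kg against the 12 lower-dose mice. This contrast called 134 genes (0.8% of those tested; 102 or 0.609% higher, 32 or 0.191% lower). Of the 99 genes, 40 were called there in the same direction (32 of the 67 induced, 8 of the 32 repressed), and 95 had the same sign, with medians of 0.63 and -0.52. The share of all genes tested with the same sign in both contrasts was not taken, so the 95 has no background beside it. *Cyp1a1* had a log2 difference of 7.64 (adjusted p = 1.74e-11), *Per3* of 2.62 and *Per2* of 1.77 (both 5.24e-06), *Dbp* of 4.02 (0.000115), *Ahrr* of 0.76 (0.00123), *Nfil3* of -2.41 (0.00156) and *Arntl* of -1.89 (0.000925). *Pfkfb3* had -0.50 (adjusted p = 0.414), *Cd38* -0.69 (0.155), *Fut2* -0.57 (0.497) and *Cry1* -0.80 (0.0999), and none of these was called. The sign was opposite for *Rin2* (-0.12), *Myot* (0.06), *Zdhhc13* (0.03) and *Igkv4-61* (2.00). All 3 µg/kg mice carry the second use of an index and all lower-dose mice the first, and the part of index use in this contrast cannot be told apart from that of dose.

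At 3, 10 and 30 µg/kg the counts of called genes against vehicle were 185 (1.11% of those tested), 423 (2.53%) and 1574 (9.4%), beside 99 (0.591%) at 1 µg/kg. *Cyp1a1* averaged 4.77, 45.4, 564 and 1741 CPM at 1, 3, 10 and 30 µg/kg, *Ahrr* 4.10, 5.88, 38.0 and 74.1 CPM, and *Cyp1b1* 2.66, 5.08, 61.0 and 103 CPM, so most of the range of these genes lay above 1 µg/kg. *Dbp* averaged 29.0, 37.7, 42.1 and 41.4 CPM, *Nr1d1* 162, 141, 148 and 105 CPM, and *Nfil3* 6.03, 4.31, 5.21 and 5.38 CPM over the same doses. *Per3* averaged 36.5, 53.8, 60.6 and 102 CPM, and *Per2* 46.8, 71.4, 91.9 and 140 CPM. *Tiparp*, at 29.5 CPM at 1 µg/kg beside 39.2 CPM in vehicle mice, averaged 36.4, 55.8 and 71.3 CPM at 3, 10 and 30 µg/kg. Every dose shares the same vehicle mice, and no difference between doses above 1 µg/kg was tested.

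Mouse 41 is the treated mouse with the same index use as the vehicle mice. With index use as a covariate, which leaves mouse 41 against the 3 vehicle mice, 31 genes were called (0.185%; 22 or 0.131% higher, 9 or 0.0538% lower), of which 23 were among the 99 (19 induced, 4 repressed). Mouse 41 was itself among the mice that chose the 99 genes. *Nr1d1* had a log2 fold change of 5.12 (adjusted p = 0.0118), *Cyp1a1* of 4.71 (0.153) and *Arntl* of -2.12 (0.0796). The lone mouse is assumed to vary like the others in this fit.

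Several called genes share exon bases, and the setting for strand in the counting is not given in the sources used here, so reads of such pairs may not be told apart. *Nr1d1* overlaps *Thra* on the opposite strand by 263 exon bases, *Dbp* overlaps *Sphk2* (log2 0.60) by 539, *Cyp2u1* overlaps *4930534D22Rik* by 548 and *Cracr2a* overlaps *Gm43634* by 664. Both genes of each of these pairs were induced. In all, 38 of the 99 share exon bases with another counted gene.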

How the data were processed

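Total RNA of ileal scrapings was sequenced from each mouse as 1 library. Per the labels' processing notes, the submitters used FastQC 0.11.3, Trimmomatic 0.33, TopHat2 2.1.0, SAMtools 1.2.0, HTSeq 0.6.1 and DESeq with GRCm38; the authors deposited, for every Ensembl gene, its raw read counts without normalization, and the counting options are not given in the sources used here. Entries that name no gene were left out; reads on no feature were 45.38% to 49.47% of the total in the 6 mice. The deposited counts list 46078 genes, 45143 with a symbol in the reference annotation. No 2 mice of the vehicle group or of the 1 µg/kg group agreed within sampling noise.

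Genes were kept by filterByExpr (minimum count 10, total 15), scaled by TMM and fitted over all 27 mice and 9 groups with edgeR 4.0.16 (quasi-likelihood, R 4.3.3), with Benjamini-Hochberg adjustment over 16741 genes within each contrast. Calls needed an adjusted p no higher than 0.05 together with a change of 1.5-fold or more. Standard errors are the estimate divided by the root of F. Log2 levels in the clock score used a prior count of 2. The fit was tested on simulated data. The genes named by rule are the 15 most induced and 12 most repressed called genes with a symbol and groups that did not overlap, called members of the lists, and members of the AhR and clock lists. Other genes, among them *Leo1*, *Nr3c2*, *Cipc* and *Scin*, were named outside this rule with their results known. Single results of some of these genes are not reported here. The comparison, gene lists and rule were chosen with earlier results of these data known. Alternatives were DESeq2 1.42.0, other scalings and filters, covariates, the 6 mice alone, and each mouse left out; the fits without mouse 14 were chosen after seeing the data. Promoters came from RefSeq (GRCm38.p6). Tables were handled in pandas 2.3.3 and numpy 2.4.6 (Python 3.11.15), exact tests run in scipy 1.17.1 and plots drawn in matplotlib 3.10.9.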

Additional observations from a re-analysis of the deposited data

How the results depend on the processing

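The 99 genes called at 1 µg/kg (67 induced, 32 repressed; 67.7% induced) became 168 with DESeq2 (94 and 74, 55.9% induced, 91 of the 99 among them) and 169 without a filter on low counts (87 and 82, 51.5% induced, 96 among them). With no fold threshold there were 151 (101 and 50), with index use as a covariate 31 (22 and 9), and with the 16 first-use mice only 30 (20 and 10). With the clock score as a covariate edgeR called 0 (0 and 0), with 960 genes at an unadjusted p under 0.05. In that fit *Nfil3* (0.24, adjusted p = 0.952), *Arntl* (0.39, 0.853) and *Cry1* (0.048, 0.989) changed sign; these genes are part of the score. Upper-quartile scaling gave 98, library size alone 92, at least 10 counts in all 6 mice 98 and the 6 mice alone 87. Leaving out 1 mouse gave 12 to 114 genes (9 to 72 induced, 3 to 42 repressed): 52 without mouse 41, 66 without 43, 51 without 44, 30 without 2, 107 without 3, 12 without 4 and 114 without mouse 14. Of the 99, 11 were called in all 6 fits that left out a compared mouse (among them *Nr1d1*, *Per3*, *Cyp2u1*, *Pfkfb3* and *Tmem252*) and 18 in none (among them *Ahrr*, *Per2*, *Trib3*, *Adamts4*, *Myot* and *Cipc*). Without mouse 14, *Adamts4* (adjusted p = 0.056) and *Myot* (0.0529) were not called and *Npas2* was (0.0131).

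The 38 genes called between 1 and 0.01 to 0.3 µg/kg became 71 with DESeq2, 86 without a filter, 7 with index use, 0 with the clock score and 65 with no fold threshold, and 25 (without mouse 43) to 72 (without mouse 14) with 1 mouse left out. The 134 called between 3 and 0.01 to 0.3 µg/kg became 216 without a filter, 1 with index use, 1 with the clock score and 240 with no fold threshold, and 50 (without mouse 52; 67 without mouse 51) to 175 (without mouse 14) with 1 mouse left out. No paired analysis was possible because the labels number the mice individually and the groups share no replicate number. Depth limits genes near 1 CPM such as *Cyp1a1* in vehicle mice, *Hlf* and *Ciart*, and with 3 mice a group the count of calls moved with single mice.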
